A study of Mus musculus with 2 samples.

Results

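The platelet glycoproteins and alpha granule chemokines described here are 9 mouse genes, chosen by name for their place in the platelet: the adhesion receptor genes Gp1ba, Gp1bb, Gp5, Gp9 and Gp6, the granule membrane receptor gene Treml1, the chemokine genes Pf4 and Ppbp, and Vwf, which encodes von Willebrand factor. A gene was counted as measured when a probe set of the array named it and no other gene. This held for 6 of the 9 (Pf4, Ppbp, Gp5, Gp9, Treml1 and Vwf), among 19935 genes in all, and each of the 6 rested on 1 probe set. No annotated probe set named Gp1ba or Gp6, and the only probe set that named Gp1bb also named its neighbour Septin5.

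The cells were bone marrow mononuclear cells of 6-week-old ddY mice, taken from a density gradient and separated by flow cytometry after staining for RANK, the receptor of the osteoclast differentiation factor RANKL, and c-Fms, the receptor of M-CSF. One population was RANKhigh c-Fmslow (RANKhigh cells) and the other RANKlow c-Fmshigh (c-Fmshigh cells), and no genotype or treatment beyond the sort is given in the labels. Each population was measured on 1 array, with the number of mice per array not given in the labels, so the values are single measurements, no difference has a replicate check, and no test was possible. Csf1r, which encodes c-Fms, had a probe set intensity of 164 among the RANKhigh c-Fmslow cells and 821 among the other cells, in the direction of the label, whereas Tnfrsf11a, which encodes RANK, stood at 104 and 119. In every pair of intensities written as 1 value against another, RANKhigh cells come first.

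Platelets are shed into the blood by megakaryocytes of the marrow, which make the platelet's receptors and fill its alpha granules beforehand. On the platelet surface, GPIb alpha and GPIb beta join GPIX and GPV in a complex that catches von Willebrand factor on a damaged vessel wall, and GPVI binds collagen. The alpha granules hold von Willebrand factor, platelet factor 4 (the product of Pf4) and platelet basic protein (the product of Ppbp, precursor of a neutrophil attractant), and they carry the receptor TLT-1, encoded by Treml1, in their membrane.

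The stretches of DNA before the start sites of Pf4, Ppbp, Gp5 and Gp9 are shown because these were the 4 measured genes that stood furthest apart between the populations. Each is the 200 bases before the start site listed by RefSeq for the GRCm38.p6 assembly, written 5′ to 3′ on the gene's own strand. Capitals mark matches, on either strand, to a GATA word (AGATAA or AGATAG or TGATAA or TGATAG) or an ETS word (AGGAAA or AGGAAG or CGGAAA or CGGAAG), the words bound by factor families that act in megakaryocytes.
Pf4, chr5:90772235-90772434, plus strand: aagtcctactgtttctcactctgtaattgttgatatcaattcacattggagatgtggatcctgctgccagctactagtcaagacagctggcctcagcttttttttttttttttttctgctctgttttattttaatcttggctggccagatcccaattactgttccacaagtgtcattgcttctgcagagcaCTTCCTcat
Ppbp, chr5:90768318-90768517, plus strand: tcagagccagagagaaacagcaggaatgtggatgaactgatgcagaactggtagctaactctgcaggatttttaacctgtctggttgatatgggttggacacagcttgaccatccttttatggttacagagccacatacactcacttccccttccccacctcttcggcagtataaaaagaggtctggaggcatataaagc
Gp5, chr16:30310782-30310981, minus strand: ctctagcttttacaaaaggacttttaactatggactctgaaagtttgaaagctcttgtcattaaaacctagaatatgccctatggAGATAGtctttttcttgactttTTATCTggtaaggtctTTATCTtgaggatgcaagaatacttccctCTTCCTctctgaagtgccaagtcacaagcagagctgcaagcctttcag
Gp9, chr6:87777870-87778069, plus strand: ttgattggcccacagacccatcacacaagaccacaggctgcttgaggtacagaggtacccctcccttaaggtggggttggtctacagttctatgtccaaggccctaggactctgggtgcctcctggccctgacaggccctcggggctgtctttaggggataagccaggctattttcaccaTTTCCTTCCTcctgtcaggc

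Gp5 held 3 GATA words and 1 ETS word in this window, Pf4 held 1 ETS word, Gp9 held 2 ETS words that overlap each other, and in Ppbp neither word was found. RefSeq entries of this kind were at hand for 8 of the 9 genes, all but Vwf. Of these 8, 4 held a GATA word, 7 an ETS word and 4 both. The 4 with a GATA word were Gp1ba, Gp1bb, Gp5 and Gp6. Among the 5 that were also measured, 1 held a GATA word, 4 an ETS word and 1 both. Over all 32851 promoter windows of this length, 7030 (21.4%) held a GATA word, 16420 (50%) an ETS word and 3431 (10.4%) both. A match describes letters only, and it does not show that a factor is bound.

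All 6 measured genes had a higher intensity in RANKhigh cells than in c-Fmshigh cells, but the size of the difference varied from 3.39-fold for Pf4 to 1.09-fold for Vwf. The median log2 difference (RANKhigh minus c-Fmshigh array) was 0.71 over the 6, beside 0.01 over all 19935 genes. Only Pf4 was higher by 2-fold or more, and 0 of the 6 were lower by 2-fold or more. A level filter kept the 11089 genes that reached 93.6, the median over both arrays, in at least 1 population, and of these 4.34% were higher by 2-fold or more in RANKhigh cells and 4.26% lower by 2-fold or more. All 6 measured genes passed this level filter. A difference above 0 was seen in 10313 of all 19935 genes and in 5383 of the 11089. These background counts also apply to the gene lists below. At a threshold of 1.5-fold, chosen after the values were seen, 4 of the 6 were higher (Pf4, Gp5, Ppbp and Gp9), beside 10.5% of the 11089 genes. That count fell to 2, Pf4 and Ppbp, when 50 was added to every intensity before the logarithm. In cells measured in bulk, a different number of cells of a type and a different amount of RNA per cell cannot be told apart.

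**Figure D1:**
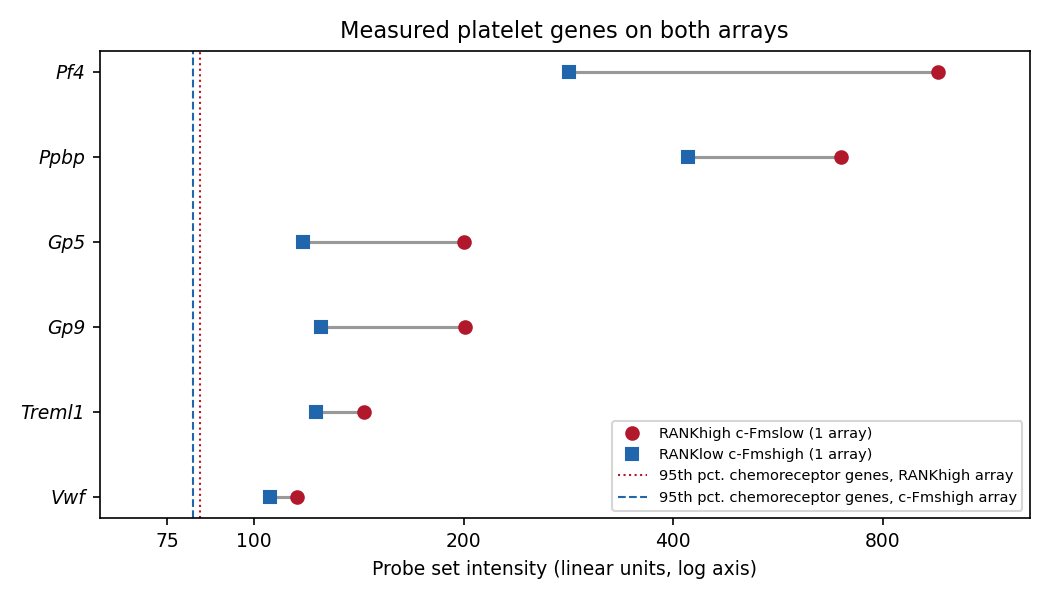
Intensity (linear units on a log axis) of the 6 measured platelet genes on the RANKhigh c-Fmslow array (circles) and the RANKlow c-Fmshigh array (squares), 1 array each, with vertical lines at the background guide given by olfactory and vomeronasal receptors (95th percentiles of 83.8 and 81.8). Every gene lies to the right in RANKhigh cells, Pf4 by the longest distance (959 against 283) and Vwf by the shortest (115 against 106).

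The 1189 measured genes of olfactory and vomeronasal receptors, which belong to sensory neurons, gave a guide to background signal. Their 95th percentile was 83.8 in RANKhigh cells and 81.8 in c-Fmshigh cells. On both arrays, 10822 of all 19935 genes lay above it, and 10534 of the 11089 that passed the level filter. All 6 platelet genes were among them, so that each of their folds is a measured ratio and not a bound. The margin differed: Pf4 stood at 11.5 times the guide in RANKhigh cells and 3.46 times the guide in c-Fmshigh cells, whereas Vwf stood at 1.38 and 1.29 times the guide.

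The chemokine genes had the clearest signal over the guide. Pf4, whose product binds heparin-like chains and is released when platelets are activated, had an intensity of 959 in RANKhigh cells and 283 in c-Fmshigh cells. The log2 difference was 1.76, and 1.21% of the 11089 genes had a larger one. Ppbp, whose product is cut to a ligand of the neutrophil receptor CXCR2, stood at 696 in RANKhigh cells and 419.7 in c-Fmshigh cells. Its log2 difference was 0.73, a 1.66-fold excess, which 7.64% of the genes surpassed. The differences of the pair, whose products are stored in the same granule, lay 1.03 apart on the log2 scale.

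The measured glycoprotein genes of the von Willebrand factor receptor had differences close to each other. Gp5, which encodes the subunit of the complex that thrombin cuts, stood at 200.1 against 118, a log2 difference of 0.77 (1.70-fold higher in RANKhigh cells). Gp9, which encodes the small subunit needed to bring the complex to the cell surface, stood at 201 against 125, a log2 difference of 0.69 (1.61-fold). The differences of these 2 subunit genes lay 0.08 apart on the log2 scale. From the highest difference down, Gp5 ranked 777 and Gp9 ranked 925 of the 11089 genes. The probe set shared by Septin5 and Gp1bb stood at 157 against 82.2, a log2 difference of 0.93, and which of these genes it reports cannot be told apart. Its value in c-Fmshigh cells was just above the guide there (81.8). With that probe set counted as a seventh member, an addition made after the values were seen, the median log2 difference was 0.73, and without Pf4 the median of the remaining 5 genes was 0.69.

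Treml1 and Vwf differed least among the 6. Treml1 had an intensity of 144 in RANKhigh cells and 123 in c-Fmshigh cells, a log2 difference of 0.23. Vwf, which endothelial cells make as well as megakaryocytes, stood at 115 against 106, a log2 difference of 0.13. Larger differences than those of Treml1 and Vwf were seen in 26.2% and 35.8% of the 11089 genes. Genes with exactly 2 probe sets give a measure of how far readings of 1 gene can part on these arrays. Over the 558 such genes that passed the level filter, the log2 differences of the 2 probe sets lay a median of 0.19 apart. The 90th percentile of this gap was 0.67. The difference of Vwf was smaller than that median and that of Treml1 lay between that median and the 90th percentile, while those of Gp9, Ppbp, Gp5 and Pf4 exceeded the 90th percentile, Gp9 by 0.02. This gap covers disagreement between probe sets over the same 2 arrays and not between replicate arrays. None of the 6 genes had a second probe set.

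**Figure D2:**
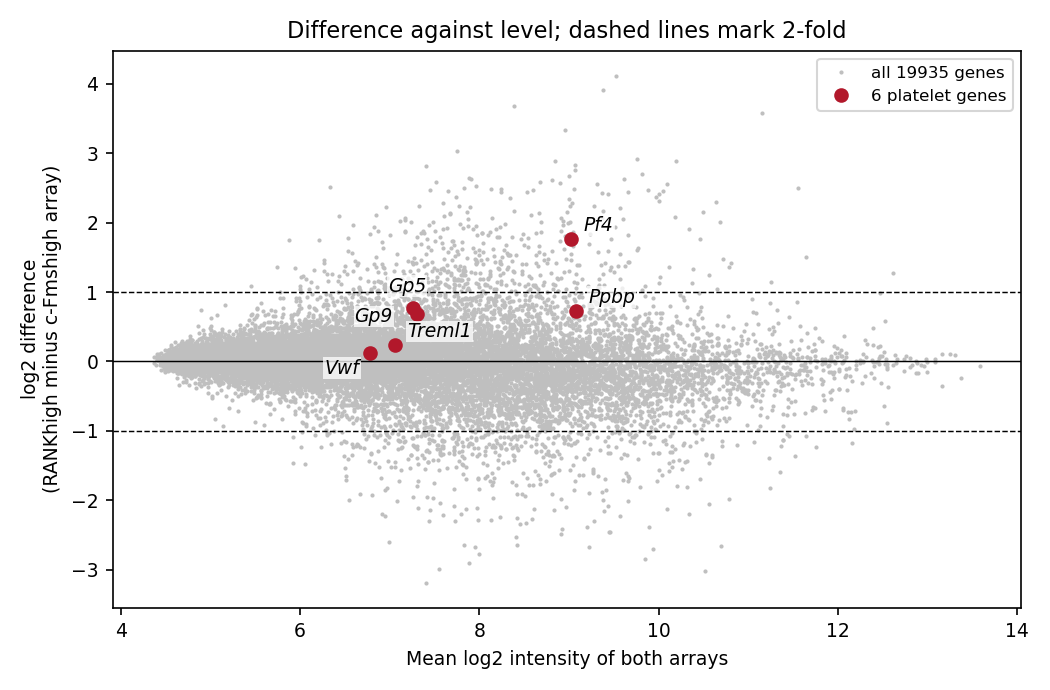
Log2 difference (RANKhigh minus c-Fmshigh array) against the mean log2 intensity of both arrays for all 19935 genes (grey) and the 6 measured platelet genes (red, named), with dashed lines at 2-fold. Pf4 (1.76) lies above the upper line, Gp5 (0.77), Ppbp (0.73) and Gp9 (0.69) lie below it, and Treml1 (0.23) and Vwf (0.13) lie inside the mass of genes near 0.

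Pf4 and Ppbp are next to each other in the gene order of the GRCm38.p6 assembly, inside a cluster of CXC chemokine genes. Of the other chemokine genes in the cluster, those above the guide were slightly lower in RANKhigh cells. Cxcl5, on the far side of Ppbp, stood at 44.9 in RANKhigh cells against 40.6 in c-Fmshigh cells, and Cxcl3, on the far side of Pf4, at 74.3 against 58.8, both below the guide on both arrays. Cxcl15 was also below it (32.3 against 31.0). Cxcl1, a neutrophil attractant, stood at 250.2 against 282, and Cxcl2, of like function, at 435 against 476. These were log2 differences of -0.17 and -0.13. The genes flanking the glycoprotein genes were mixed. Rab43, beside Gp9, was 1.59-fold higher in RANKhigh cells (218 against 137), and Atp13a3, beside Gp5, was 1.49-fold lower (373 against 554). Cd9, which encodes a tetraspanin abundant on platelets and lies beside Vwf, stood at 435 against 229.8 (1.89-fold higher). The other genes flanking Gp5, Gp9, Treml1 and Vwf differed less. Efcc1, beside Gp9, stood at 102 against 113. Beside Treml1, Nfya stood at 391 against 487 and Trem2 at 177 against 166. Lrrc15, beside Gp5 (57.4 against 63.5), and Ano2, beside Vwf (52.0 against 49.9), were below the guide on both arrays. Neighbours were chosen by place alone, after the members' values were known.

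**Figure D3:**
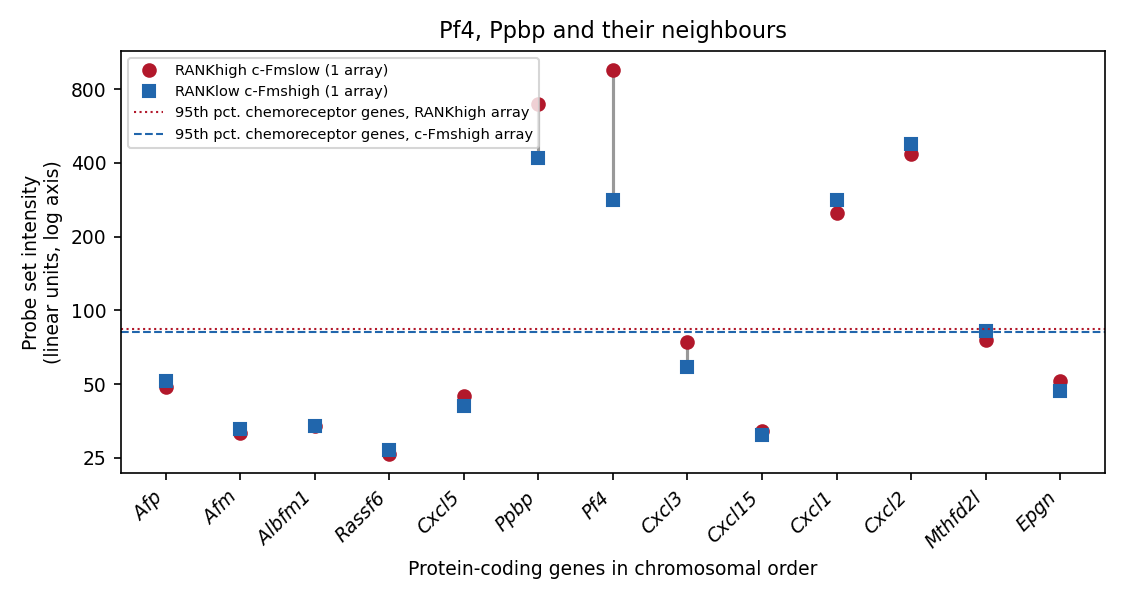
Intensity (linear units on a log axis) of Pf4 and the 6 protein-coding genes on either side of it, Ppbp among them, in chromosomal order on the RANKhigh c-Fmslow array (circles) and the RANKlow c-Fmshigh array (squares), with horizontal lines at the 95th percentile of the receptor genes (83.8 and 81.8). Ppbp (696 against 419.7) and Pf4 (959 against 283) are separated between the arrays, whereas Cxcl1 (250.2 against 282) and Cxcl2 (435 against 476) are close together and the others lie near or below the guide.

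Other genes of CXC chemokines and their receptors were compared as a list of 19 measured genes. Of these 13 had a difference above 0, 3 were higher by 2-fold or more in RANKhigh cells and 0 lower by 2-fold or more, and the median log2 difference was 0.06. Cxcr2, the receptor for the Ppbp product and a marker of neutrophils, stood at 1113 against 182. Cxcr3 stood at 133 against 110.0. Ackr3 and Cxcr5 completed the 3 by measured values only. With Ackr1 just short of 2-fold, these genes were higher by at least 1.20-fold (Ackr3), 1.27-fold (Cxcr5) and 1.20-fold (Ackr1), their values in c-Fmshigh cells being below the guide.

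Other platelet receptors differed in both directions. Of 17 measured genes 8 had a difference above 0, 1 was higher by 2-fold or more and 0 lower by 2-fold or more in RANKhigh cells, and the median log2 difference was -0.03. Cd36, which encodes the receptor for thrombospondin and fatty acids, was the 1 at 2-fold (569.7 against 267, 2.13-fold higher). Itga2, a chain of a collagen receptor, was 1.67-fold higher (157 against 94.0), beside Cd9 at 1.89-fold. F2rl2, a thrombin receptor, was 1.95-fold lower at 171 against 334. The chains of the fibrinogen receptor parted: Itga2b stood at 132 against 108 (log2 difference 0.29) and Itgb3 at 131 against 209 (-0.67). Genes of this list were also low: P2ry12, the ADP receptor, stood at 41.1 against 49.4 and Clec1b, the podoplanin receptor, at 48.5 against 49.9, both below the guide on both arrays. Itga2b, Itgb3, P2ry12, Clec1b and Cxcr3 were chosen after their values were seen.

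Genes for other alpha granule cargo and for granule formation had a median log2 difference of 0.11 over 19 measured genes, with 2 higher by 2-fold or more and 1 lower by 2-fold or more in RANKhigh cells. Ccl5, a chemokine that T and NK cells also make, stood at 1063 against 240.0 (4.43-fold higher). Gfi1b, a repressor that megakaryocytes and erythroid cells both need, stood at 430.0 against 156 (2.76-fold higher). F13a1, which monocytes also make in quantity, stood at 517 against 4177 (8.08-fold lower), so that it ran against the 6 platelet genes. Igf1 was 1.55-fold higher. The clotting factor gene F5 stood at 216 against 140.2 and the thrombospondin gene Thbs1 at 256 against 198. Nbeal2, needed to form alpha granules, stood at 152 against 141, and the granule protein gene Mmrn1 was below the guide at 43.5 against 39.0. F5, Thbs1, Nbeal2 and Mmrn1 were chosen after their values were seen.

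Signalling partners of the collagen receptor and of GPIb were mostly lower in RANKhigh cells. Of 16 measured genes 5 had a difference above 0, 1 was higher by 2-fold or more and 4 lower by 2-fold or more, and the median log2 difference was -0.37. The adaptor gene Lcp2 (538 against 1419) was 2.64-fold lower, Flna, whose product ties GPIb to actin, 2.61-fold (473 against 1236) and the exchange factor gene Vav3 2.56-fold (209 against 536). Fcer1g, which encodes the chain that carries the GPVI signal and also serves Fc receptors of myeloid cells, was 2.01-fold lower (668 against 1344) and is named, after its value was seen, because it completes the 4. Lat, which is also in the list of T and NK cell markers counted below, was 2.10-fold higher (193 against 92.1).

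Among 16 megakaryocyte transcription factor genes 12 had a difference above 0, 3 were higher by 2-fold or more and 0 lower by 2-fold or more, and the median log2 difference was 0.44. Beside Gfi1b these were Ets1 (429 against 162, 2.65-fold) and Gata1 (356 against 137, 2.59-fold), a factor of both megakaryocytes and erythroid cells. Etv6 stood at 300.2 against 599, lower in RANKhigh cells by just under 2-fold. Nfe2, which drives the last steps of platelet formation, stood at 730.2 against 587, and Fli1, an ETS factor of megakaryocytes, at 939 against 1018; both were chosen after their values were seen. Of 13 genes of the megakaryocyte cytoskeleton, 7 had a difference above 0 and 1 was higher by 2-fold or more, with a median log2 difference of 0.05. Myh10 was that gene (2.58-fold), and Tmod1, Tuba8 and Actn1 were 1.88-fold, 1.87-fold and 1.79-fold higher. Tubb1, the beta tubulin of platelets, stood at 119.8 against 129 and was chosen after its values were seen. Of 13 genes of platelet production and clearance 4 had a difference above 0 and 0 were 2-fold or more apart, with a median of -0.04. Sh2b3, a brake on thrombopoietin signalling, was 1.86-fold higher, while Adam17 was 1.74-fold, Stat5b 1.52-fold and Cd226 1.39-fold lower.

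**Figure D4:**
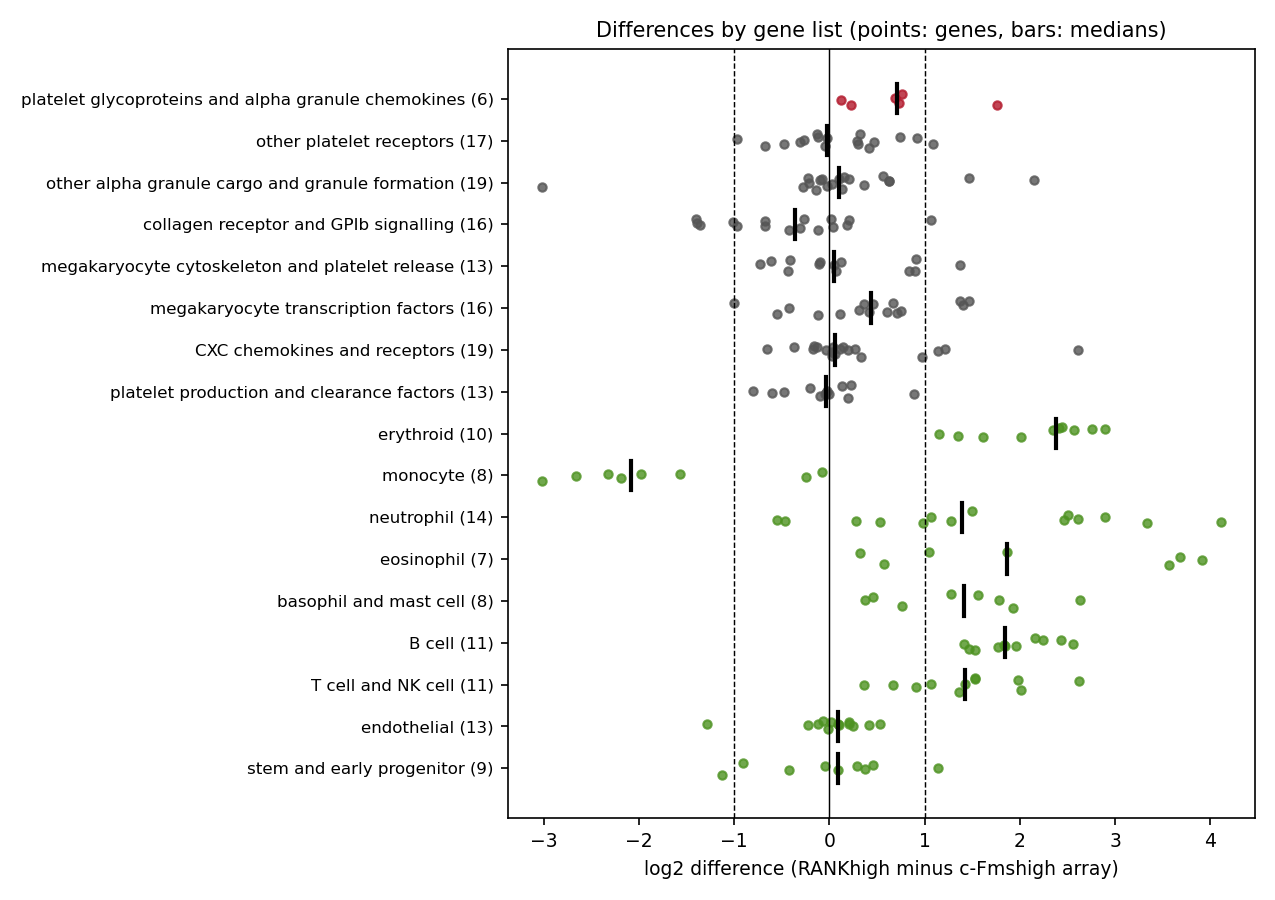
Log2 difference (RANKhigh minus c-Fmshigh array) of each measured gene, by list, with the number of genes in brackets, a black bar at each list's median and dashed lines at 2-fold. The 6 platelet genes (red) have a median of 0.71, the other platelet and megakaryocyte lists (grey) medians from -0.37 to 0.44, and the lists of cell type markers (green) medians from -2.08 in monocytes to 2.38 in erythroid cells.

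Markers of other blood cells differed in the same comparison, and their part in the values of the platelet genes was not tested. All 10 measured erythroid markers were higher by 2-fold or more in RANKhigh cells, with summed intensities of 14169 against 3392 and a median log2 difference of 2.38, above that of Pf4. Of 14 neutrophil markers 9 were higher by that much (median 1.39, summed intensities 48408 against 19934). Mpo (3026 against 4434) and Prtn3 (466 against 643), chosen after their values were seen, were the 2 lower in RANKhigh cells. Of 7 eosinophil markers 5 were higher by 2-fold or more by measured values (median 1.87, 12331 against 1283). For Il5ra, 1 of these 5, only an excess of at least 1.21-fold can be stated, since its value in c-Fmshigh cells was below the guide. Il5ra was chosen after its values were seen. Of 8 basophil and mast cell markers 5 were (median 1.42, 3651 against 1064). All 11 B cell markers (median 1.84, 14600.1 against 3983) and 8 of 11 T and NK cell markers (median 1.43, 4759 against 1584) were too. No gene of these lists was listed at 0. The median over 8 monocyte markers was -2.08, with 6 lower by 2-fold or more and summed intensities of 3698 against 16909.6. The summed intensity of the 6 platelet genes was 2315 against 1174. Of 13 endothelial markers, the other source of Vwf, 8 had a difference above 0 and 1 was lower by 2-fold or more, with summed intensities of 1543 against 1496 and a median of 0.09. Of these 13, 4 lay above the guide on both arrays and 7 below it on both, beside 10822 and 7846 of all 19935 genes. Pecam1, which platelets and leukocytes also carry, stood at 598 against 412, and Sele, the one lower by 2-fold or more, at 134 against 329. Egfl7 stood at 147 against 128 and Eng at 93.9 against 78.8. Of 9 stem and early progenitor markers 1 was higher by 2-fold or more and 1 lower by 2-fold or more, with summed intensities of 1159 against 1289 and a median of 0.10.

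The genes nearest to Pf4 on the plane of the log2 intensities of both arrays, a likeness that rests on 2 values per gene, were not platelet genes of the lists. They were Tnfrsf13c, which encodes the BAFF receptor of B cells (942 against 296), Ly6d (1009 against 277), Blvrb, which encodes a biliverdin reductase of red cells (928 against 265), Ell2 (887 against 305) and Stk11 (861 against 279.8). Their distances from Pf4 ran from 0.07 to 0.16 on the log2 scale. Left out of this search were unnamed gene models, microRNAs, small nucleolar RNAs and chemoreceptors such as the olfactory and vomeronasal receptors.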

How the data were processed

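Total RNA of each sorted population was amplified, labelled with biotin and hybridised to 1 array, per the labels' protocols. The deposited values are linear intensities of probe sets. GCOS 1.4 and RMA are named in the submitters' processing notes, without their roles or order, and the step that gave linear values is not given in the sources used here. Background correction and normalization were those of the authors. The platform annotation, dated 2016, gave 1 gene for 21780 of the 28815 probe sets and several genes for 1605, and it did not list 5430. By Entrez identifier, 21689 of the 21780 were found among the RefSeq genes.

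Intensities were put on the log2 scale with no pseudocount and no further scaling, and probe sets of a gene were averaged (Python 3.11, pandas 2.3.3). With 1 array per group no test, p-value or error was computed; the number of arrays limits the precision. A gene's fold was taken against the guide level (95th percentile over olfactory and vomeronasal receptors) and written "at least" where its lower value did not exceed that level. The averaging and the 2-fold count were tested on simulated data with known shifts. Named are all members and the 5 genes nearest to Pf4. From each gene list and the endothelial markers, up to 4 genes passing the level filter with the largest absolute difference are named. Csf1r and Tnfrsf11a are named as the genes of the sorted receptors, neighbours are named by place, and others are marked. Marker lists of other blood cells are given mainly by counts and sums. The members and lists were chosen with earlier results of these data known. Alternatives were pseudocounts of 16 and 50, centring on the median, quantile normalization, the highest probe set per gene and no level filter. The word search for promoters used both strands.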

Additional observations from a re-analysis of the deposited data

How the results depend on the processing

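The sign of all 6 differences and the count of 1 gene higher by 2-fold or more (and 0 lower) were the same under pseudocounts of 16 and 50, centring of the arrays, quantile normalization and the choice of the highest probe set. Under these the log2 difference ranged from 1.60 to 1.83 for Pf4 and from 0.67 to 0.80 for Ppbp. It was 0.58 to 0.77 for Gp5, 0.52 to 0.69 for Gp9, 0.17 to 0.23 for Treml1 and 0.08 to 0.13 for Vwf. The median over the 6 ranged from 0.55 to 0.71. In the added settings, which changed the set of genes, the median was 0.73 with the probe set shared by Septin5 and Gp1bb and 0.69 without Pf4. The choice of the highest probe set could not move a member, since each had 1 probe set. A pseudocount cannot change the sign of a difference, so only centring and quantile normalization could have changed a sign. Centring shifted every log2 difference by 0.03. Adding 50 to every intensity lowered the number of members higher by 1.5-fold or more from 4 to 2, and of all genes higher by 2-fold or more from 481 to 319 and lower by 2-fold or more from 472 to 311; a pseudocount shrinks every ratio by construction. The medians of the gene and marker lists kept their sign under centring and quantile normalization. With no level filter 487 genes were higher by 2-fold or more and 474 lower. No paired analysis was possible because each group has 1 array. Signal close to the background guide limits what can be read from Vwf and Treml1. The same limit holds for the values of Gp5 and Gp9 in c-Fmshigh cells, and so for their folds.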
